A study of Mus musculus with 4 samples.

Results

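The genes described here are 10 members of transforming growth factor beta (TGF-beta) signalling and of the transcription factor programme of Langerhans cells: Tgfb1, Tgfbr1, Tgfbr2, Smad2, Smad3, Smad4, Smad7, Skil, Runx3 and Id2. Every probe set that the platform annotation assigns to exactly 1 of these symbols was taken, which gave 20 of the 22626 probe sets on the array that are not Affymetrix controls. A probe set is a group of short array probes read together as 1 signal. Tgfbr1, Tgfbr2, Smad4 and Id2 have 3 probe sets each, Smad3 and Skil have 2, and the other members have 1. All probe sets are shown separately.

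Expression was measured in mouse Langerhans cells, the antigen-presenting cells of the epidermis, at 95% purity per the labels, with 4 samples on 1 array each. TCDD 1 and TCDD 2 came from mice given 10 µg of TCDD, a dioxin that binds the aryl hydrocarbon receptor (AhR), with control 1 and control 2 from mice of the control experiments, and cells were isolated 24 h later. The labels give 100 µl for every sample, with oil for TCDD 1, DMSO and oil into the peritoneum for TCDD 2, DMSO and olive oil for control 1, and for control 2 the same treatment text as for TCDD 2. TCDD 2 and control 2 were from back skin, whereas the labels of TCDD 1 and control 1 name no skin site. The pair of arrays that name back skin, and the pair that do not, are each called a preparation here, a name that stands only for that label. No label ties a TCDD sample to a control as 1 experiment, the descriptions of the controls name different experiments, and skin site and experiment cannot be told apart. The description of control 2 calls it a control and its title names no TCDD, but its treatment text does, so results without it are given as well. The sources used here give neither the strain, age and sex of the mice nor whether cells of several animals were pooled.

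TGF-beta 1, the product of Tgfb1, binds the receptor encoded by Tgfbr2, which recruits and activates the receptor kinase encoded by Tgfbr1. The activated kinase phosphorylates Smad2 and Smad3, which join Smad4 and act in the nucleus, while Smad7 blocks the receptor and the corepressor SnoN, encoded by Skil, blocks the Smads. In mice, Langerhans cells fail to develop or to persist without TGF-beta 1, and the transcription factors Runx3 and Id2 are likewise needed for them.

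The comparison of TCDD with control asked whether the members differ in Langerhans cells a day after TCDD. The brightest probe sets of Tgfbr2, Smad2, Smad3 and Smad7 read lower on both TCDD arrays than on both control arrays, and a pair of Id2 probe sets read higher on both. That is 4 lower and 2 higher of 14 tested, against 13.2% and 12.4% of all tested probe sets. A dimmer, untested probe set of Tgfbr2 and another of Smad3 read higher on both TCDD arrays. Among all 20 members, 4 were thus lower and 4 higher, against 14.9% and 12.8% of all 22626. The brightest probe sets of Smad4 and Skil lay within a few percent of each other on all 4 arrays. None of the tested differences passed. Of 14 member probe sets bright enough to be tested, 0 were called, against 0% of all 13576 tested probe sets (limma, smallest adjusted p 0.9999, threshold 0.05). Without adjustment, p was under 0.05 for 0 of the 14 members and 199 of the 13576. Pairing the arrays across the preparations, an alternative chosen after seeing the data, likewise called 0 of the 14, against 0.0737% of all (limma, 0 members at an unadjusted p under 0.05).

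Values are MAS5 signals on a linear scale, and differences are TCDD minus control on the log2 scale with their standard error from limma. The fit holds treatment and preparation as terms over 2 arrays per group. A probe set was tested if its mean log2 signal reached 6.85, a geometric mean signal of 115. The 6 members below that were 2 probe sets of Tgfbr1, 2 of Tgfbr2, 1 of Smad3 and the only one of Runx3. The endings a_at and s_at mark probe sets whose probes match several transcripts of 1 gene or transcripts of several genes.

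**Figure D1:**
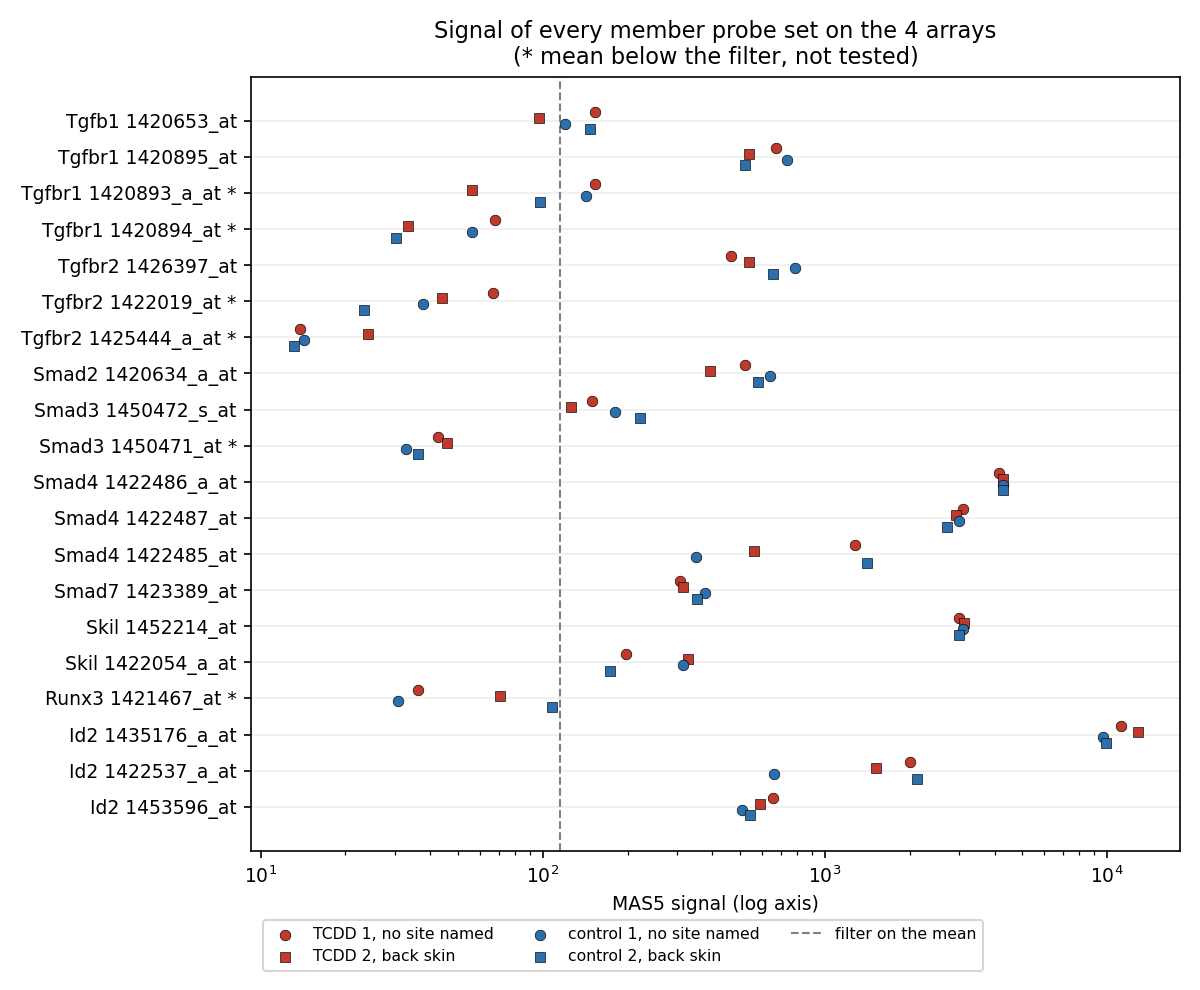
MAS5 signal (log axis) of the 20 member probe sets on the 4 arrays. Red marks TCDD and blue control, squares mark back skin and circles the preparation with no site named, and the dashed line is the filter at 115, applied to the mean. The brightest probe set of Smad4 spans only 4156 to 4289.7, whereas Smad4 1422485_at spans 349 to 1410.5.

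The 4 arrays differed in RNA quality and in some markers. The actin 3′ to 5′ ratio, read from Affymetrix control probe sets and higher where RNA or its labelled copies are shorter, was 3.48 on TCDD 1, 7.71 on TCDD 2, 49.7 on control 1 and 4.64 on control 2. All 9 fixed markers of Langerhans cells passed the filter, with summed signals of 43067 and 42293 on the TCDD arrays and 34155 and 56114 on the controls. Of 10 T cell markers on the array, 8 passed, and all 10 summed to 2430 and 1769 on the TCDD arrays and 1724 and 3295 on the controls. Zap70, a T cell kinase, was the brightest and read 857 and 948 on the TCDD arrays and 875 and 759 on the controls. The CD3 chain genes varied more: Cd3e read 387 and 113 on the TCDD arrays and 197.5 and 471 on the controls, and Cd3g 234 and 89.5 against 71.0 and 471. Cd3d and Lat lay below the filter, with Cd3d at 18.1 and 6.4 against 5.9 and 36.0 and Lat at 48.8 and 30.3 against 48.3 and 272. Of 10 keratinocyte markers 6 passed, of 5 melanocyte markers 5, of 6 fibroblast and endothelial markers 1, and of 4 B cell and red cell markers 1.

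Because TCDD acts through AhR, which with its partner Arnt binds DNA at the core GCGTG, the bases upstream of the members' starts were searched for that core on both strands. The RefSeq table of promoters (GRCm38.p6) held 8 windows for 6 of the 10 members, those of Tgfb1, Tgfbr1, Tgfbr2, Smad3, Runx3 and Id2, and only the 250 bases before each start were used. Shown are the genes whose brightest tested probe set was lower (Tgfbr2, Smad3) or higher (Id2) on both TCDD arrays, and the first window of Tgfbr1, which holds the core more than once. They run 5′ to 3′ with GCGTG or its reverse complement CACGC in capitals. Tgfbr2 lies on the minus strand at chr9:116175364-116175613, Smad3 on the minus strand at chr9:63757995-63758244, Id2 on the minus strand at chr12:25096093-25096342, and Tgfbr1 on the plus strand at chr4:47352972-47353221.
Tgfbr2: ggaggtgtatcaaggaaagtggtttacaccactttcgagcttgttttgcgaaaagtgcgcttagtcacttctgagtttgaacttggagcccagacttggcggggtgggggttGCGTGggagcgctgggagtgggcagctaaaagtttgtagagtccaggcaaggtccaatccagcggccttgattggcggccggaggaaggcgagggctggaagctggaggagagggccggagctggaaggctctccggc
Smad3: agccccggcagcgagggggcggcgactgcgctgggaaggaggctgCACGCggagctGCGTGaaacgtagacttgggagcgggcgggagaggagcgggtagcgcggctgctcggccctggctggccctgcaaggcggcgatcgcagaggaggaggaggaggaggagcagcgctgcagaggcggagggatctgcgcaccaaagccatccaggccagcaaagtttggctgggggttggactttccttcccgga
Id2: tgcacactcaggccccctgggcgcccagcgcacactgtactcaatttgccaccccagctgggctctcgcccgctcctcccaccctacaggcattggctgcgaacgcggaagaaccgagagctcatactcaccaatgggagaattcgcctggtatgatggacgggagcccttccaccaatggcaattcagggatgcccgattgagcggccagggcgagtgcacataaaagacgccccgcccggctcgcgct
Tgfbr1: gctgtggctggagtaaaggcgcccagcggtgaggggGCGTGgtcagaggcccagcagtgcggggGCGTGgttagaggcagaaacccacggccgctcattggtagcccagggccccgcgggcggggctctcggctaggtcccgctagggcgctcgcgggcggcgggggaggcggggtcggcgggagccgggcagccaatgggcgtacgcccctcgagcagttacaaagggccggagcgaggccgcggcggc

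The core occurred 2 times in the first window of Tgfbr1, 214 and 186 bases before the start, and 2 times in Smad3, 205 and 194 bases before it. It occurred 1 time each in Tgfbr2 and Tgfb1 and was not found in the Id2 window, the second Tgfbr1 window or either Runx3 window. Of all 32851 windows of the table, 28.2% held it, so the 4 of 8 member windows are a description. The Smad-binding letters CAGAC, or GTCTG on the other strand, were found in 4 of the 8 windows, those of Tgfbr2, both Runx3 starts and the second Tgfbr1 start, against 42.2% of all windows. In Tgfbr2, the window that held both, the CAGAC lay 160 and the GCGTG 138 bases before the start, so they did not overlap. A match of letters is no evidence of binding.

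The ligand gene Tgfb1 read 154 and 96.9 on TCDD 1 and TCDD 2, and 120.1 and 147.5 on controls 1 and 2. The groups overlapped, and the array order ran TCDD 1, control 2, control 1, TCDD 2 from high to low. The difference was -0.13 ± 0.48 (SE, n = 2 per group), with a 95% interval from -1.22 to 0.97. Its mean log2 signal of 6.99 was near the filter of 6.85, and it lay between the 34.9th and the 45.6th percentile of its array. T cells also express Tgfb1, and the summed T cell markers were likewise higher on TCDD 1 and control 2 than on TCDD 2 and control 1. The summed Langerhans cell markers split the arrays in the same way, but narrowly, at 43067 on TCDD 1 against 42293 on TCDD 2. Of the 9 markers, 3 split so singly, while 3 were lower on both TCDD arrays and 3 higher on both back skin arrays. Of all tested probe sets 24.2% split in that way, whereas Zap70 ran the other way. The part of either cell type in the Tgfb1 signal was not tested. In bulk samples, fewer cells of a type and less RNA per cell cannot be told apart.

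Of the receptors, Tgfbr2 differed more than Tgfbr1. By its brightest probe set, 1426397_at, Tgfbr2 read 465 and 538 on the TCDD arrays and 786 and 658 on the controls. Both TCDD arrays lay below both controls, and the difference was -0.52 ± 0.35 (SE, n = 2 per group), with a 95% interval from -1.31 to 0.27. The other Tgfbr2 probe sets were dim and did not follow it: 1422019_at read 66.7 and 43.9 on the TCDD arrays against 37.6 and 23.2 on the controls, higher on both TCDD arrays. The third, 1425444_a_at, read 13.8 and 24.0 against 14.3 and 13.1, below the 15th percentile of every array.

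Tgfbr1 by 1420895_at read 671 and 538 on the TCDD arrays and 736 and 521.5 on the controls, and the groups overlapped. The difference was -0.04 ± 0.34 (SE, n = 2 per group). The dimmer Tgfbr1 probe sets overlapped between the groups as well. They read 152.9 and 56.2 after TCDD against 142.8 and 97.8 in controls for 1420893_a_at, and 67.9 and 33.2 against 56.4 and 30.3 for 1420894_at.

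The receptor-regulated Smads both read lower after TCDD by their tested probe set. Smad2 read 521 and 393.5 on the TCDD arrays and 641 and 581 on the controls, a difference of -0.43 ± 0.34 (SE, n = 2 per group) with a 95% interval from -1.20 to 0.34. Smad3 by 1450472_s_at read 149 and 126 on the TCDD arrays and 180.4 and 221 on the controls, a difference of -0.54 ± 0.41 with a 95% interval from -1.48 to 0.40. In both genes the 2 TCDD arrays lay below the 2 controls. The other Smad3 probe set, 1450471_at, lay below the filter and ran the other way, at 42.7 and 45.7 after TCDD against 32.7 and 36.3 in controls.

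Smad4, the shared partner of the receptor-regulated Smads, was steady across the arrays by 2 of its 3 probe sets. By 1422486_a_at it read 4156 and 4289.7 on the TCDD arrays and 4276 and 4286 on the controls, a difference of -0.02 ± 0.32 (SE, n = 2 per group). By 1422487_at it read 3094 and 2923 against 2988 and 2714, a difference of 0.08 ± 0.33. The third probe set, 1422485_at, read 1277 and 564 on TCDD 1 and TCDD 2 and 349 and 1410.5 on controls 1 and 2, a difference of 0.27 ± 0.64. It was high on TCDD 1 and control 2 and low on the other arrays, a pattern that the brighter probe sets of the same gene did not show.

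The inhibitors of the pathway gave small differences. Smad7, which is itself induced by TGF-beta, read 308 and 313.5 on the TCDD arrays and 376 and 353 on the controls. Both TCDD arrays lay below both controls, by -0.23 ± 0.34 (SE, n = 2 per group). Skil, which TGF-beta also induces, read 2993 and 3111 on the TCDD arrays and 3091 and 2995 on the controls by 1452214_at, a difference of 0.0043 ± 0.33 whose sign depends on the scaling of the arrays. Its dimmer probe set, 1422054_a_at, read 198 and 329 after TCDD against 314 and 173 in controls (0.13 ± 0.45), with TCDD 2 and control 1 above TCDD 1 and control 2.

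Runx3 was measured by 1 probe set, 1421467_at, which read 36.2 and 70.7 on TCDD 1 and TCDD 2 and 30.6 and 107.7 on controls 1 and 2. It lay between the 17.7th and the 35.4th percentile of its array, below the filter, and was not tested. Without detection calls, which the sources used here do not give, whether these signals exceed background was not tested.

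Id2, an inhibitor of E-protein transcription factors, was bright by every probe set. By 1435176_a_at it read 11268 and 12852 on the TCDD arrays and 9687 and 9916 on the controls, both TCDD arrays above both controls. The difference was 0.30 ± 0.29 (SE, n = 2 per group), with a 95% interval from -0.36 to 0.95. By 1453596_at it read 656 and 589.6 against 507 and 543, again without overlap, by 0.24 ± 0.34. By 1422537_a_at it read 1998 and 1525.5 on the TCDD arrays and 661 and 2122 on the controls, so that the groups overlapped, control 1 stood far below the rest and the difference was 0.56 ± 0.49. Control 1 was the lowest array for 4 of the 14 tested members, against 31.7% of all tested probe sets.

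**Figure D2:**
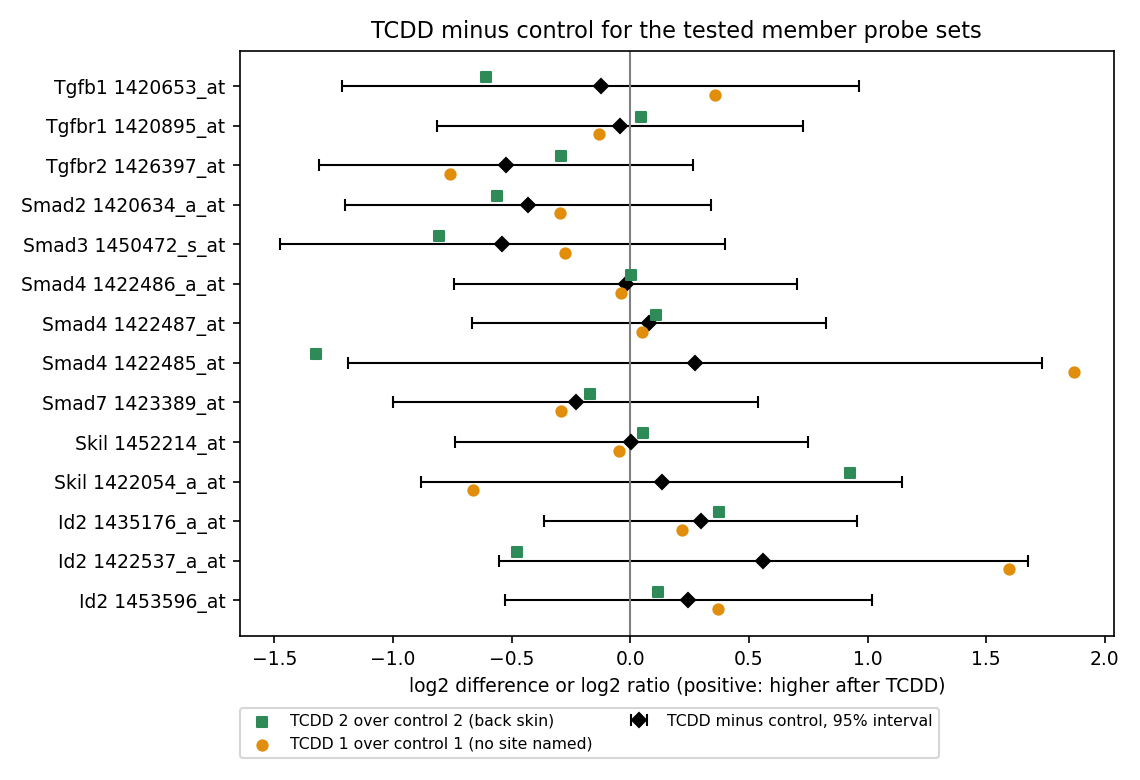
TCDD minus control log2 difference of the 14 tested member probe sets (black diamonds) with the 95% interval from limma, with the log2 ratio of TCDD 2 to control 2 in back skin (green squares) and of TCDD 1 to control 1 (orange circles). All 14 intervals include 0, and the ratios of Smad4 1422485_at lie farthest apart, at -1.32 in back skin and 1.87 with no site named.

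In all, 4 of the 14 tested member probe sets had both TCDD arrays below both controls, against 13.2% of all tested probe sets, and 2 of the 14 had both above, against 12.4%. Among all 20 members these counts were 4 lower, against 14.9% of all 22626 probe sets, and 4 higher, against 12.8%. The median difference of the 14 was -0.0078, and that of all tested probe sets was -0.0064. The median size regardless of sign was 0.24 for the members and 0.20 for all. Half-widths of the members' 95% intervals had a median of 0.77.

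Leaving out control 2, the array with conflicting labels, compares both TCDD arrays with control 1 alone, a lone array assumed to vary like the others. Fits with an array left out held only the term compared, so here the preparation term was dropped as well. The difference was then -0.65 for Tgfbr2, -0.50 for Smad2, -0.39 for Smad3, -0.28 for Smad7, 0.31 for Id2 by 1435176_a_at and 0.29 by 1453596_at, none of which passed (limma, adjusted p from 0.447 to 0.857). Id2 by 1422537_a_at did pass, at 1.40 ± 0.34 (limma, adjusted p = 0.026), the only call among the 14, against 2.1% of all tested probe sets. That call rests on control 1, whose signal of 661 was less than that of every other array. Leaving out control 1 instead gave a difference of -0.28 for 1422537_a_at. Smad4 1422485_at, also lowest on control 1, differed by 1.28 without control 2 and by -0.73 without control 1. Without control 1, 0 of the 14 members were called, against 0.0884% of all probe sets (limma, 0 at an unadjusted p under 0.05).

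Tested probe sets of 1 gene disagreed in Smad4, Skil and Id2, and in Tgfbr2 and Smad3 a dimmer, untested probe set ran against the tested one. Smad4 1422485_at and Id2 1422537_a_at were highest on TCDD 1 and control 2, lower on TCDD 2 and lowest on control 1, and the actin and Gapdh 3′ to 5′ ratios were lowest on TCDD 1 and control 2, higher on TCDD 2 and highest on control 1. The Gapdh ratio was 9.55 on TCDD 1, 15.9 on TCDD 2, 106.8 on control 1 and 11.9 on control 2. Skil 1422054_a_at ran the opposite way, higher on TCDD 2 and control 1. The highest signal was 4.04 times the lowest for Smad4 1422485_at, 3.21 times for Id2 1422537_a_at and 1.90 times for Skil 1422054_a_at, but 1.03, 1.33 and 1.04 times for the brightest probe set of each gene. The part of RNA length in these patterns was not tested, and the position of the probe sets along the transcripts was not used here.

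TCDD 1 and control 2 both lay above TCDD 2 and control 1 for 3 of the 14 tested members (Tgfb1, Smad4 1422485_at and Id2 1422537_a_at), against 24.2% of all tested probe sets. They both lay below them for 2 of the 14, both of Skil, against 18%. Both shares of all probe sets exceed those for TCDD against control.

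**Figure D3:**
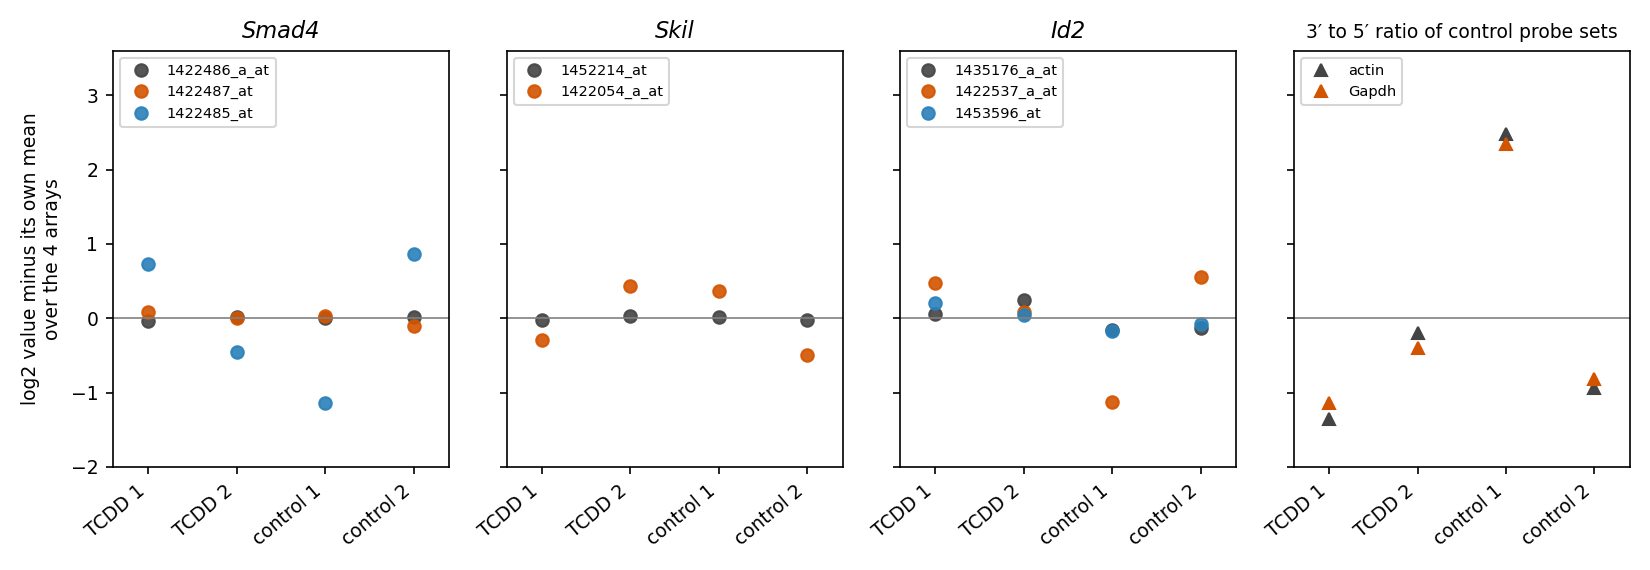
Log2 signal of each probe set of Smad4, Skil and Id2 minus its own mean over the 4 arrays, and the 3′ to 5′ ratios of the actin and Gapdh control probe sets on the same scale. The brightest probe sets stay close to 0 while Smad4 1422485_at and Id2 1422537_a_at are lowest on control 1, the array with an actin ratio of 49.7.

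The comparison of back skin with the preparation that names no site asked how the members differ with skin site or experiment. Here the signals of Tgfbr1, of Runx3 and of 2 Smad4 probe sets, which ran in opposite directions, did not overlap between the preparations. In all, 4 of the 20 members were lower and 2 higher on both back skin arrays, against 15% and 17.5% of all probe sets. Runx3 and the Tgfbr1 probe sets 1420893_a_at and 1420894_at lay below the filter and were not tested. All 3 Tgfbr1 probe sets read lower on both back skin arrays: 1420895_at read 538 and 521.5 on TCDD 2 and control 2, against 671 and 736 on TCDD 1 and control 1. The corresponding values were 56.2 and 97.8 against 152.9 and 142.8 for 1420893_a_at, and 33.2 and 30.3 against 67.9 and 56.4 for 1420894_at. These probe sets measure 1 gene in the same 4 samples and are not independent.

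Runx3 read 70.7 and 107.7 on TCDD 2 and control 2, against 36.2 and 30.6 on TCDD 1 and control 1, with both back skin arrays higher. Dendritic epidermal T cells also express Runx3. The T cell markers summed to 1769 and 3295 on the back skin arrays and 2430 and 1724 on the others, and their part in the Runx3 signal was not tested.

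None of the 14 tested members was called for the preparation, against 0% of all tested probe sets (limma, smallest adjusted p 0.9994), and without adjustment p was under 0.05 for 0 members and 274 of the 13576. Without TCDD 1, the fit called 0.656% of all tested probe sets but again 0 of the 14 members (limma, 2 members at an unadjusted p under 0.05, namely Smad4 1422485_at and Id2 1422537_a_at). That fit set both back skin arrays against control 1 alone, the array with an actin ratio of 49.7, and held no treatment term. Both of those probe sets read lowest on control 1. With all 4 arrays, Tgfbr1 by 1420895_at differed by -0.41 ± 0.34 (back skin minus no site named, SE, n = 2 per preparation). The 95% interval ran from -1.18 to 0.36. Both back skin arrays were below both others for 2 of the 14, Tgfbr1 1420895_at and Smad4 1422487_at, against 15.9% of all tested probe sets. They were above for 1 of the 14, Smad4 1422486_a_at, against 16.1%, and there the arrays differed by at most 1.03 times. Among all 20 members, both back skin arrays were below both others for 4, against 15% of all probe sets, and above for 2, against 17.5%. The median size of the preparation difference was 0.09 for the 14 members and 0.23 for all tested probe sets.

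Around the members, 60 other genes of the pathway in 5 lists were on the array, each represented by its brightest probe set, and 47 passed the filter. Of the 47, 0 were called for TCDD (limma, adjusted p = 0.9999 for each named below, 1 of 47 at an unadjusted p under 0.05). Both TCDD arrays lay above both controls for 9 genes, against 11.4% of the 8413 tested genes, and below for 3 genes, against 14.1%. The median difference was 0.02 for the 47 and -0.03 for all tested genes. From each list the rule names the 2 brightest genes and the 2 with the largest difference.

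Among 9 tested genes for ligands and their activation, 1 was higher and 1 lower on both TCDD arrays. The shares of all tested genes were 11.4% higher and 14.1% lower. Itgav, the integrin alpha chain of the receptors that release latent TGF-beta, read 4339 and 4799 on the TCDD arrays and 4169 and 5068 on the controls (-0.01 ± 0.32). Nrros, which anchors latent TGF-beta on myeloid cells, read 3240.1 and 2428 against 2109 and 3452 (0.06 ± 0.38). Bmp7, a related ligand, differed by -0.40 ± 0.48, and Ltbp3, a latent TGF-beta binding protein, by -0.35 ± 0.41. Outside the rule, as the relatives of Tgfb1, Tgfb2 read 190.3 and 152.7 against 138.0 and 207.8, and Tgfb3 lay below the filter.

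On both TCDD arrays, 11.4% of all tested genes were higher and 14.1% lower. Among 9 other receptors of the family, by their brightest probe set, 0 were higher and 1 was lower on both. That was Acvr2a, an activin receptor, with 932 and 753 on the TCDD arrays and 942 and 1055 on the controls (-0.25 ± 0.35), and another tested probe set differed by 0.05. Acvr1, a receptor for bone morphogenetic proteins, differed by 0.02 ± 0.34, and by 0.55 and 0.35 on its other tested probe sets. Both of the latter were higher on both TCDD arrays, at 338.5 and 322.8 against 158.7 and 320.3, and at 225.6 and 217.0 against 140.2 and 215.4. The coreceptors Eng and Tgfbr3 differed by 0.69 ± 0.47 and 0.34 ± 0.51 and read lowest on control 1: Eng read 206 and 224 on the TCDD arrays and 75.6 and 234 on the controls, and Tgfbr3 165 and 143 against 74.7 and 196.

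Of 12 tested Smads, corepressors and other regulators, 3 were higher and 1 was lower on both TCDD arrays. For all tested genes the shares were 11.4% and 14.1%. Fkbp1a, the immunophilin that binds the receptor encoded by Tgfbr1, read 10373 and 11681 on the TCDD arrays and 9463 and 9090.3 on the controls (0.25 ± 0.29), and its other tested probe sets differed by 0.05, 0.38 and 0.05. Strap, an adaptor that stabilises the binding of Smad7 to the receptor, read 1025 and 922 against 826 and 458 (0.66 ± 0.36). Ppm1a, a phosphatase that acts on Smad2 and Smad3, read 1464 and 1377 against 2309 and 1733 (-0.49 ± 0.34), and Trim33, a ubiquitin ligase for Smad4, differed by -0.32 ± 0.36. Another tested Ppm1a probe set, 1451943_a_at, differed by 0.60 ± 0.42, so the probe sets of this gene disagreed. The other tested Strap probe sets differed by less, 0.11 and -0.16.

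Of 10 tested genes that respond to TGF-beta, 2 were higher and 0 lower on both TCDD arrays. Over all tested genes the shares were 11.4% and 14.1%. Tgfbi, which encodes an extracellular matrix protein named for its induction by TGF-beta, read 332 and 550.4 on the TCDD arrays and 269.9 and 171 on the controls (0.99 ± 0.41), the largest difference among the 47. Those values are from 1437463_x_at, and the other tested Tgfbi probe sets differed by 0.29 ± 0.57 and -0.21 ± 0.50, with groups that overlapped. A further Tgfbi probe set, 1415871_at, lay far below the filter and ran the other way. It read 3.6 and 5.4 on the TCDD arrays against 7.7 and 6.7 on the controls. Pmepa1, a feedback inhibitor of the pathway, read 1066 and 1518.5 against 772 and 859 (0.64 ± 0.35), and its dimmer tested probe set differed by -0.45 ± 0.42. The brightest genes of the list, Gadd45b and Tsc22d1, differed by -0.14 ± 0.32 and -0.21 ± 0.40. Another tested Tsc22d1 probe set, 1425742_a_at, was lower on both TCDD arrays, at 1120 and 1284 against 2618 and 1373 (-0.66 ± 0.39), and the remaining tested ones differed by -0.38 and 0.03. The other tested Gadd45b probe sets differed by 0.18 and -0.06.

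Of 7 tested relatives and partners of Runx3 and Id2, 3 were higher and 0 lower on both TCDD arrays by their brightest probe set. The shares of all tested genes were 11.4% and 14.1%. Runx1 read 333 and 285 on the TCDD arrays and 199 and 252 on the controls by 1452531_at (0.46 ± 0.36), but 173 and 190.3 against 297 and 253 by 1452530_a_at (-0.59 ± 0.37), each without overlap and in opposite directions. Id4 read 190.3 and 149.9 against 73.0 and 125 by 1423260_at (0.82 ± 0.49), near the filter at a mean log2 signal of 6.99. The log2 ratio was 1.38 for TCDD 1 to control 1 but 0.27 for TCDD 2 to control 2. The other Id4 probe sets lay below the filter and did not follow it. By 1450928_at both TCDD arrays were slightly lower, at 87.1 and 91.8 against 97.5 and 92.8. By 1423259_at the groups overlapped, at 9.9 and 7.7 against 48.3 and 5.8. Id1, the third of the genes without overlap, is named for that reason after its values were seen and read 218 and 199 against 153.4 and 153.1 (0.44 ± 0.39). Cbfb, the DNA-binding partner of the Runx proteins, differed by -0.26 ± 0.35, and the E-protein gene Tcf12 by -0.0017 ± 0.40.

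**Figure D4:**
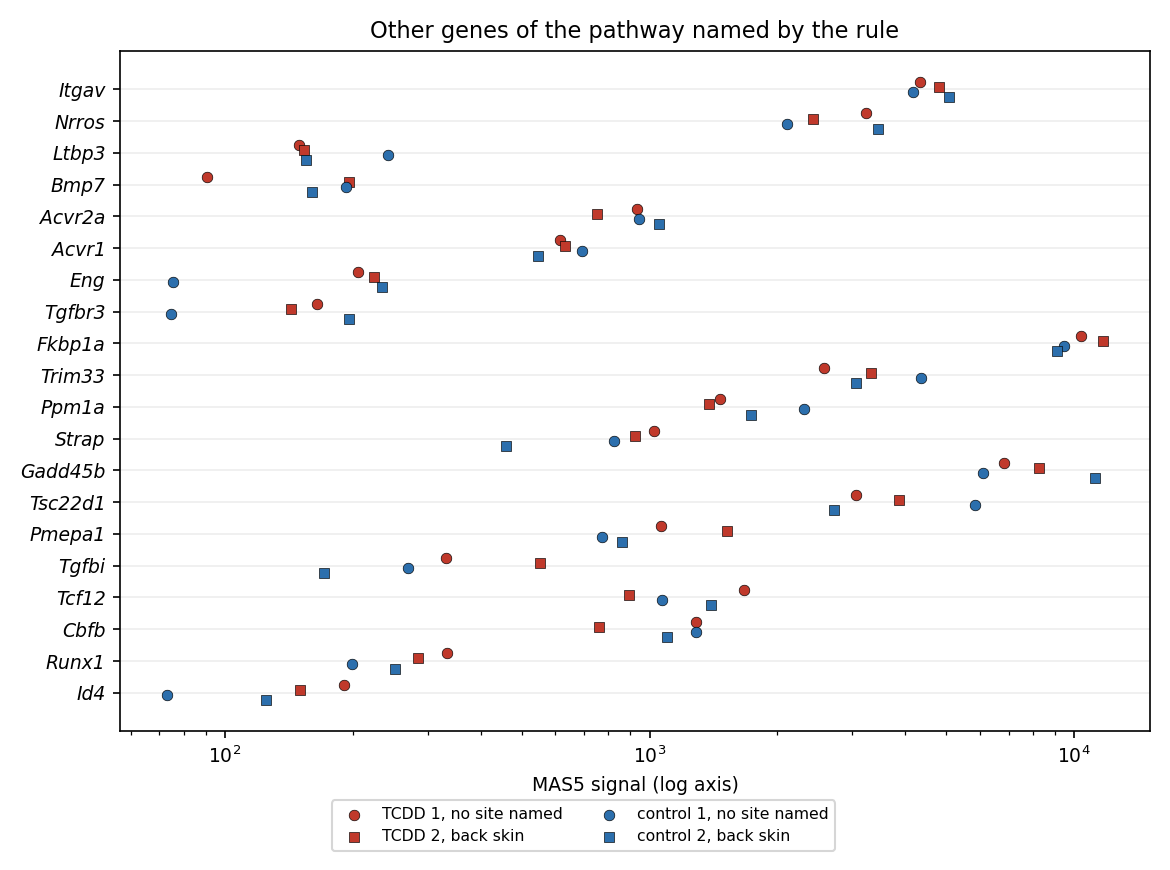
MAS5 signal (log axis) of the 20 other pathway genes named by the rule, by their brightest probe set, with red for TCDD, blue for control, squares for back skin and circles for no site named. Tgfbi and Pmepa1 have both red points right of both blue points, and Eng and Tgfbr3 have control 1 far to the left.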

How the data were processed

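The authors deposited MAS5 signal intensities, linear and not logged, for each probe set of the 4 arrays. The submitters' processing notes list affy and MAS5, and their versions were not given in the sources used here. Trimming 2% at each end of the 22690 deposited intensities left a mean of 500 in every array, so the authors had scaled them alike. The 64 Affymetrix control probe sets entered only the 3′ to 5′ ratios. Probe sets with several gene symbols (691) were not named.

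Groups follow titles and descriptions. The labels do not say that arrays hold separate animals, so the p-values cover only sample-to-sample spread, and that may be technical. The 13576 probe sets whose mean log2 signal reached the 40th percentile were tested in limma 3.58.1 (R 4.3.3). Its terms were treatment and preparation, eBayes used the trend option, and p-values were adjusted by Benjamini-Hochberg over all tested probe sets. The fit was also run on simulated data drawn from its own variance model. Those data held no array or RNA quality effect, so they cannot show how the fit behaves on these arrays. The small number of arrays limits the precision of the fit. Deviations from the group means of the arrays of 1 preparation did not go together (Pearson's r -0.18 across probe sets), so the labels' site, not this check, is the reason for the preparation term.

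Members, gene lists and the naming rule were chosen with earlier results of these data known, so counts and medians over them are descriptions. The rule names every member and, from each list, the 2 brightest genes and the 2 with the largest TCDD difference. Alternatives were other normalizations, filters and an offset, no variance trend, no preparation term, the crossed pairing and each array left out. The fits with an array left out held treatment alone or preparation alone.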

Additional observations from a re-analysis of the deposited data

Results flagged for a closer look

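For 7 of the 14 tested member probe sets the log2 ratio of TCDD to control had opposite signs in back skin and in the preparation with no site named, as it had for 59.3% of all tested probe sets. Each ratio rests on 1 pair of arrays, so the differences between the preparations were not tested. For Smad4 1422485_at the ratio was -1.32 in back skin and 1.87 with no site named, a difference of -3.19. For Id2 1422537_a_at it was -0.48 in back skin and 1.60 with no site named, a difference of -2.07. Skil 1422054_a_at ran the other way, with 0.93 and -0.66, a difference of 1.59. The ratios of Tgfb1 were -0.61 and 0.36, a difference of -0.96. For Tgfbr1 1420895_at, Skil 1452214_at and Smad4 1422486_a_at the differences were 0.18, 0.10 and 0.04.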

How the results depend on the processing

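The count of 0 calls for TCDD held under quantile normalization, median centring, no filter, a stricter filter, an offset of 32, no variance trend and without the block on preparation, where it was also 0 (limma, 220 at an unadjusted p under 0.05 with no replicate block). A block on the crossed pairing, chosen after seeing the data, gave 10 calls (limma), 0 of them members. Leaving out 1 array gave 0 to 285 calls for TCDD, the highest without control 2, and 0 to 89 for the preparation, the highest without TCDD 1. The members' median TCDD difference lay between -0.103 and 0.046 in those fits. Signs turned mostly where differences were near 0: Skil 1452214_at for TCDD was -0.0049 after quantile normalization and -0.0007 after median centring. For the preparation, Smad3 1450472_s_at was -0.036 after quantile normalization and -0.037 after median centring, where Smad4 1422486_a_at was -0.038 and Skil 1452214_at -0.058. With 1 array left out, the TCDD difference of 7 members changed sign: it ranged from -0.28 to 1.40 for Id2 1422537_a_at, from -0.73 to 1.28 for Smad4 1422485_at, from -0.043 to 0.0029 for Smad4 1422486_a_at, from -0.30 to 0.56 for Skil 1422054_a_at, from -0.024 to 0.032 for Skil 1452214_at, from -0.46 to 0.21 for Tgfb1 and from -0.29 to 0.20 for Tgfbr1 1420895_at. The preparation difference of 11 members changed sign: it ranged from -0.15 to 1.44 for Id2 1422537_a_at, from -0.075 to 0.30 for Id2 1435176_a_at, from -0.21 to 0.16 for Id2 1453596_at, from -0.53 to 0.40 for Skil 1422054_a_at, from -0.022 to 0.033 for Skil 1452214_at, from -0.55 to 0.0068 for Smad2, from -0.38 to 0.43 for Smad3 1450472_s_at, from -0.52 to 1.35 for Smad4 1422485_at, from -0.18 to 0.11 for Smad7, from -0.49 to 0.12 for Tgfb1 and from -0.40 to 0.36 for Tgfbr2 1426397_at. The causes were not tested. These fits leave a lone array in 1 group, assumed to vary like the others, and hold only the term compared.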
